A study of Arabidopsis thaliana with 6 samples.

Results

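Aliphatic glucosinolates are sulphur-rich defence compounds that *Arabidopsis thaliana* makes from methionine. The genes described here were listed by locus number, with earlier results of these data known. These are 10 loci of that pathway, out of 33554 genes in the expression tables. They are the R2R3-MYB regulators *MYB28*, *MYB29* and *MYB76*, the chain-elongation genes *BCAT4* and *MAM1*, and the core synthesis genes *CYP79F1*, *CYP79F2*, *CYP83A1*, *UGT74C1* and *SOT18*. RNA-seq libraries were made from shoot apices of wild-type Col-0 plants (WT) and of *vip3-1* in the same background, with 3 libraries of each genotype.

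*vip3-1* is named as a null allele of *VIP3* and is a single T-DNA insertion line. *VIP3* encodes a subunit of the Paf1 complex, which travels with RNA polymerase II and assists transcription through chromatin. The same protein also belongs to the SKI complex, which works with the RNA exosome in mRNA turnover. All plants of both genotypes grew in short days at 21°C and were then moved to continuous light at 16°C. Primary inflorescence apices were cut, flowers past stage 4 were taken off, and each tube received 30 to 35 apices. RNA of 2 tubes was joined for each library, from 6 tubes of a genotype. The resulting samples are described as technical triplicates, so p-values measure a difference against the spread between pools of apices, and genotype and any difference in growth or harvest cannot be told apart.

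Methionine enters the pathway by losing its amino group to BCAT4 in the cytosol. The product is carried into the plastid by BAT5 and lengthened in repeated rounds by a methylthioalkylmalate synthase (MAM), an isopropylmalate isomerase and an isopropylmalate dehydrogenase. CYP79F enzymes turn the lengthened amino acid into an aldoxime, CYP83A1 oxidises it, and sulphur from glutathione, glucose (UGT74B1, UGT74C1) and sulphate (SOT17, SOT18) are then added in turn. Side chains are modified last by FMOGS-OX and AOP enzymes. MYB28, MYB29 and MYB76 are the known activators of these steps and act together with the bHLH proteins MYC2, MYC3 and MYC4. In leaves and stems the pathway is best known from tissue in and around the veins.

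The targeted gene was read first. *VIP3* had 40.8, 41.7 and 40.1 CPM (counts scaled by effective library size, from edgeR's TMM method) in WT and 5.96, 7.41 and 7.30 CPM in *vip3-1*, where values are always given in the order of replicates 1, 2 and 3. Every *vip3-1* library was thus below every WT library (log2 fold change -2.57 with a standard error (SE) of 0.099, adjusted p = 0.000192 in edgeR's quasi-likelihood test). Here and below p-values were adjusted by Benjamini-Hochberg over all genes tested. Libraries held between 50040047 and 69033269 counts. WT replicate 3 stood apart, with 422 genes over 4-fold above the other WT libraries against 36 and 33 in WT replicates 1 and 2, and *vip3-1* replicate 3 had 197 against 48 and 8. A list of 11 anther and ovule genes of older flowers summed to 967 CPM in WT replicate 3 and to between 28.7 and 75.0 CPM in the other libraries. Its ovule genes were highest in *vip3-1* replicate 1 instead. There *STK* had 239 counts and *INO* 72, against 168 and 1 in WT replicate 3 and at most 12 and 2 in the remaining libraries. Member results are also given without WT replicate 3. The low-count filter of edgeR kept 20690 genes. Of these, 6354 (30.7%) were called at an adjusted p-value under 0.05, 3031 (14.6%) higher and 3323 (16.1%) lower in *vip3-1*. Every *vip3-1* library exceeded every WT library for 25.3% of the tested genes.

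Of the 10 members, 5 passed the low-count filter. All 5 were higher in *vip3-1*, which compares with the 14.6% of tested genes called higher, and their median log2 fold change was 1.75 beside -0.018 over all tested genes. *MYB28*, *UGT74C1* and *SOT18* reached the filter level in all WT libraries. *MAM1* reached it in 1 WT library and *CYP83A1* in 2, so these 2 genes entered the test mainly through their *vip3-1* libraries, and the count of 5 is given as a description only. The remaining members were *BCAT4* and *CYP79F1*, with counts in *vip3-1* alone, *MYB29* and *CYP79F2*, with a few counts in both genotypes, and *MYB76*, with none.

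**Figure D1:**
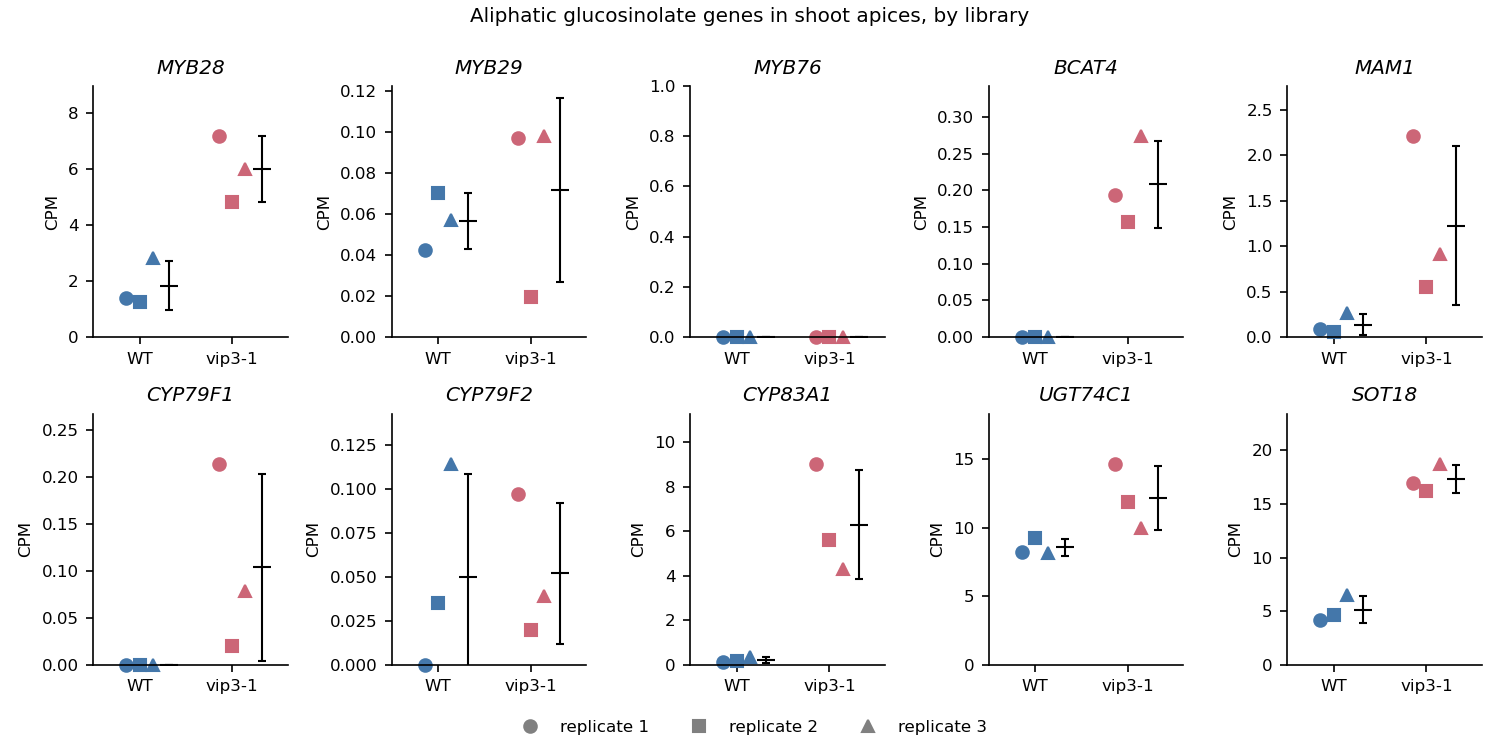
Level of each of the 10 members in CPM (linear axis from 0, scaled separately for each gene) in the 3 WT and 3 *vip3-1* libraries, with the replicate number as the symbol and the mean and SD (n = 3) as the bar beside the points, cut at 0. *CYP83A1* lies between 0.128 and 0.361 CPM in WT and between 4.29 and 9.02 CPM in *vip3-1*, while *MYB29* and *CYP79F2* overlap between genotypes and *MYB76* is at 0 throughout.

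*MYB28* (AT5G61420, chromosome 5, 24689069 to 24691187 on the minus strand of TAIR10.1) encodes the main activator of the aliphatic pathway. In estimated counts it had 98, 72 and 149 in WT against 369, 244 and 306 in *vip3-1*. In CPM these were 1.39, 1.26 and 2.83 against 7.16, 4.81 and 5.99. WT replicate 3 was the highest of the WT libraries and *vip3-1* replicate 2 the lowest of the mutant ones, and the genotypes did not overlap. The mean rose 3.27-fold, from 1.83 ± 0.873 to 5.98 ± 1.18 CPM (SD, n = 3 libraries each). On the log2 scale this was a rise of 1.71 (SE 0.35, adjusted p = 0.0149 in edgeR's test). Without WT replicate 3 it was 2.17 (adjusted p = 0.00182), and without *vip3-1* replicate 1 it was 1.55 and missed the threshold (adjusted p = 0.0591). In such dissected apices, more cells of a type and more RNA per cell cannot be told apart, here and in all that follows.

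*MYB29* and *MYB76* encode the paralogous activators, which are known to share targets with *MYB28*. They lie next to each other on the plus strand of chromosome 5, *MYB29* (AT5G07690) from 2446669 to 2448584 and *MYB76* (AT5G07700) from 2450027 to 2451807, with 1442 bases between them. *MYB29* had 3, 4 and 3 counts in WT and 5, 1 and 5 in *vip3-1*, sums of 10 and 11. Its values overlapped entirely, and a fit without the filter gave an adjusted p of 0.781 in edgeR's test. *MYB76* had no count in any of the 6 libraries. A count of 0 leaves room for up to 3 counts, or between 0.0425 and 0.0591 CPM in these libraries, so a difference in *MYB76* was not detectable at this depth. Their coding sequences were identical at 77.5% of aligned bases, with no identical run longer than 30 bases.

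Chain elongation starts with *BCAT4*, the aminotransferase that acts on methionine (AT3G19710, chromosome 3, 6846969 to 6849582, minus strand). It had no count in the WT libraries and 10, 8 and 14 counts in *vip3-1*, or 0.209 ± 0.0595 CPM (SD, n = 3). All mutant libraries were above 3 counts, the level taken as the floor in each WT library. The *vip3-1* mean was 4.11-fold the mean of that floor. The gene did not pass the filter. In the fit without it, where 9.64% of 26634 genes were higher in *vip3-1*, *BCAT4* had an adjusted p of 0.0165 in edgeR's test. *BCAT4* overlaps the antisense gene AT3G19700, which had between 1 and 3 counts in each library, fewer than *BCAT4* in every *vip3-1* library.

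*MAM1* encodes the synthase that adds the extra carbon in each round of elongation (AT5G23010, chromosome 5, 7703041 to 7706973, plus strand). Its counts were 6, 3 and 14 in WT and 114, 28 and 47 in *vip3-1*. In CPM the *vip3-1* libraries had 2.21, 0.552 and 0.920, all above the WT maximum of 0.266 in replicate 3, but replicate 1 was more than the other 2 together. The mean rose 9.12-fold, from 0.135 ± 0.115 to 1.23 ± 0.872 CPM (SD, n = 3 each). The log2 fold change of 3.20 (SE 0.77) had an adjusted p of 0.0249 in edgeR's test. It was 4.09 without WT replicate 3 (adjusted p = 0.0109). Leaving out WT replicate 1, WT replicate 2, *vip3-1* replicate 1 or *vip3-1* replicate 3 gave 2.94, 2.82, 2.45 and 3.35, with adjusted p-values of 0.0710, 0.0671, 0.0790 and 0.0559, so the call rested on most of the libraries. The neighbouring paralogue *MAM3*, which can make longer chains, had a single count in all 6 libraries.

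The first step of core synthesis is divided between *CYP79F1* (AT1G16410, chromosome 1, 5608682 to 5612064) and *CYP79F2* (AT1G16400, 5605044 to 5607498). CYP79F1 accepts short and long chains and CYP79F2 long chains only. Both genes lie on the plus strand, 1183 bases apart, and 91.9% of their 1605 aligned coding bases are identical. The longest identical coding stretch, bases 994 to 1093 of the *CYP79F1* coding sequence as annotated by RefSeq, is shown because a fragment from inside it cannot be assigned to either gene.
CYP79F1 and CYP79F2 shared run: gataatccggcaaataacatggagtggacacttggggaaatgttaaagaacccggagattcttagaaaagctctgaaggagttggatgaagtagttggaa

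*CYP79F1* had no count in WT and 11, 1 and 4 counts in *vip3-1*. *CYP79F2* had 0, 2 and 6 counts in WT and 5, 1 and 2 in *vip3-1*, which sums to 8 in each genotype. Only replicates 1 and 3 of *vip3-1* held *CYP79F1* above the floor of 3 counts, whereas *CYP79F2* overlapped between genotypes. The *CYP79F1* mean of 0.104 ± 0.0994 CPM (SD, n = 3) in *vip3-1* was 2.05-fold the mean WT floor, with replicate 2 below that floor. Without the filter the adjusted p-values were 0.0735 for *CYP79F1* and 0.951 for *CYP79F2* in edgeR's test, so neither passed. Of the FPKM (fragments scaled by transcript length and mapped fragments) of both genes together, *CYP79F1* took 0% in WT replicates 2 and 3, and 68.3, 48.5 and 65.3% in *vip3-1*. WT replicate 1 had no read of either gene and gives no share. An exact two-sided permutation test of this share gave p = 0.1, the smallest value that these libraries allow, and the shares rest on few counts a library. Both genes share near-identical sequence, and how the authors divided such fragments was not stated, so the split is uncertain.

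*CYP83A1*, the oxidase that follows the CYP79F enzymes, changed most among the members that passed the low-count filter (AT4G13770, chromosome 4, 7990429 to 7992429, minus strand). Counts were 9, 11 and 19 in WT, and 465, 284 and 219 in *vip3-1*. These correspond to 0.128, 0.193 and 0.361 CPM in WT and 9.02, 5.59 and 4.29 CPM in *vip3-1*. Even the lowest mutant library was more than 10 times above the highest WT library. The mean rose 27.7-fold, from 0.227 ± 0.121 to 6.30 ± 2.45 CPM (SD, n = 3 each), with a log2 fold change of 4.80 (SE 0.48, adjusted p = 0.00203 in edgeR's test). It ranked 33 by log2 fold change among the genes called higher. The value was 5.30 without WT replicate 3 (adjusted p = 0.00126), and the call held in all 14 alternatives in which the gene was tested. Its coding sequence is identical to that of the indole pathway paralogue *CYP83B1* at 65.6% of aligned bases, with no identical run over 19 bases.

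The 250 bases before the annotated start of *CYP83A1* (TAIR10.1, chr4:7992430-7992679, minus strand) are printed. The gene was chosen as the most changed of the members that passed the low-count filter, and it was the only member with a G-box. A G-box is the CACGTG core that bHLH proteins such as the MYC factors can bind. The G-box begins 43 bases before the start. Capitals mark it and an AC-element, a sequence type bound by R2R3-MYB proteins (searched as ACCTACC or ACCAACC on both strands, here read as GGTAGGT).
CYP83A1 upstream sequence: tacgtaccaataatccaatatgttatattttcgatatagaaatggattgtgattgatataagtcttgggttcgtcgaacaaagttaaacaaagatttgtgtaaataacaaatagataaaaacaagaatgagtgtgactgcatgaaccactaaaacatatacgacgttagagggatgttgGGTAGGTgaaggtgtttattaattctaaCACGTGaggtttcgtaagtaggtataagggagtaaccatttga
Over windows of the same length before 27443 genes, 6.49% held a G-box and 3.79% an AC-element. *CYP79F2* was the other member with an AC-element. A match is a run of letters and no measured binding site.

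*UGT74C1*, a glucosyltransferase that acts on the aliphatic thiohydroximates, changed least of the members called (AT2G31790, chromosome 2, 13518199 to 13520364, plus strand). Its libraries had 8.26, 9.25 and 8.18 CPM in WT and 14.6, 11.9 and 9.96 CPM in *vip3-1*. The genotypes did not overlap, with a gap of less than 1 CPM between WT replicate 2 and *vip3-1* replicate 3. The mean rose 1.42-fold, from 8.56 ± 0.597 to 12.2 ± 2.36 CPM (SD, n = 3 each), a rise of 0.51 on the log2 scale (SE 0.15, adjusted p = 0.0479 in edgeR's test). This call was lost in 10 of 15 alternatives. Over all 15, adjusted p-values ranged from 0.0142 to 0.125 and log2 fold changes from 0.34 to 0.62. It held when *vip3-1* replicate 3 was left out (adjusted p = 0.0369), and was lost without any other library, with 0.48 (adjusted p = 0.0697) without WT replicate 3. Whether counting used the strand was not stated, so reads from the opposite strand of this locus cannot be told apart from its own.

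*SOT18* encodes the sulphotransferase of the last core step (AT1G74090, chromosome 1, 27862814 to 27864193, plus strand). It had 4.21, 4.65 and 6.54 CPM in WT and 16.9, 16.2 and 18.7 CPM in *vip3-1*, from 265 to 344 and from 821 to 956 counts. Replicate 3 was the highest library of each genotype, and the genotypes were far apart relative to their spread. The mean rose 3.36-fold, from 5.13 ± 1.24 to 17.3 ± 1.302 CPM (SD, n = 3 each), with a log2 fold change of 1.75 (SE 0.18, adjusted p = 0.00212 in edgeR's test). It was 1.96 without WT replicate 3 (adjusted p = 0.000393) and stayed past the threshold in all 15 alternatives, between 1.59 and 1.96. AT1G74088 overlaps *SOT18* on the same strand and was lower in *vip3-1*, by a log2 fold change of -1.01 (adjusted p = 0.00834 in edgeR's test). *SOT16*, the indole pathway paralogue 151 bases away, is identical to it at 79.7% of aligned coding bases.

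Levels of different members are compared in FPKM, which takes length into account. In WT, *UGT74C1* (5.61 ± 0.666 FPKM) and *SOT18* (4.59 ± 1.11 FPKM) were highest and overlapped between libraries. *MYB28* followed at 1.44 ± 0.643 FPKM, and *CYP83A1* and *MAM1* had 0.140 and 0.0814 FPKM (SD, n = 3 for each mean). In *vip3-1*, *SOT18* was the highest at 15.6 ± 1.21 FPKM, followed by *UGT74C1* at 7.99 ± 1.06 FPKM, without overlap. *MYB28* (4.83 ± 1.14 FPKM) and *CYP83A1* (3.70 ± 1.02 FPKM) overlapped there, whereas in WT the ranges of these 2 genes were separate. *MAM1* had 0.674 ± 0.368 FPKM in *vip3-1*, and *BCAT4* and both *CYP79F* genes stayed at or below 0.231 FPKM in every library.

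Together the 10 members summed to 14.1, 15.5 and 18.4 CPM in WT and to 50.6, 39.2 and 40.4 CPM in *vip3-1*. When the 5 tested members were standardised on the log2 CPM scale and averaged, *vip3-1* replicate 1 was highest (1.22), and replicates 2 and 3 were alike (both 0.64). WT replicate 3 (-0.49) was closer to the mutant than WT replicates 1 (-1.05) and 2 (-0.96). The 5 genes whose values over the 6 libraries followed this mean most closely were *GPX2* (Pearson r = 0.996), AT4G35840 and AT1G80940 (both 0.995), *CLV3* and *MPK12* (both 0.993). *GPX2* encodes a glutathione peroxidase, *CLV3* the stem cell peptide and *MPK12* a MAP kinase. With 6 libraries that include the difference between genotypes, 902 of 16936 genes had an r above 0.9, and the coefficients are a description.

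The other aliphatic pathway genes were taken from a list of 25, of which 20 were tested. Of these, 13 were higher and 1 was lower in *vip3-1*, with a median log2 fold change of 1.19. Over all tested genes, 14.6% were higher and 16.1% lower. Without WT replicate 3, 15 of the same 20 genes were higher and 1 lower. Calls over all genes, in either direction, also rose in that fit, from 6354 to 8055. Grouped by step and with the members included, all 6 tested of 9 chain-elongation genes were higher (median 3.27), and so were all 9 tested of 11 core synthesis genes (median 1.50). Some genes of both steps reached the filter level only or mainly in *vip3-1*, so these counts and medians are a description. Of 10 side-chain genes, 7 were tested, 2 were higher and 1 was lower (median 0.22). Neither of the 2 glucosinolate transporter genes passed the threshold, with log2 fold changes of 0.25 for *GTR1* (adjusted p = 0.112) and 0.45 for *GTR2* (adjusted p = 0.0508 in edgeR's test).

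**Figure D2:**
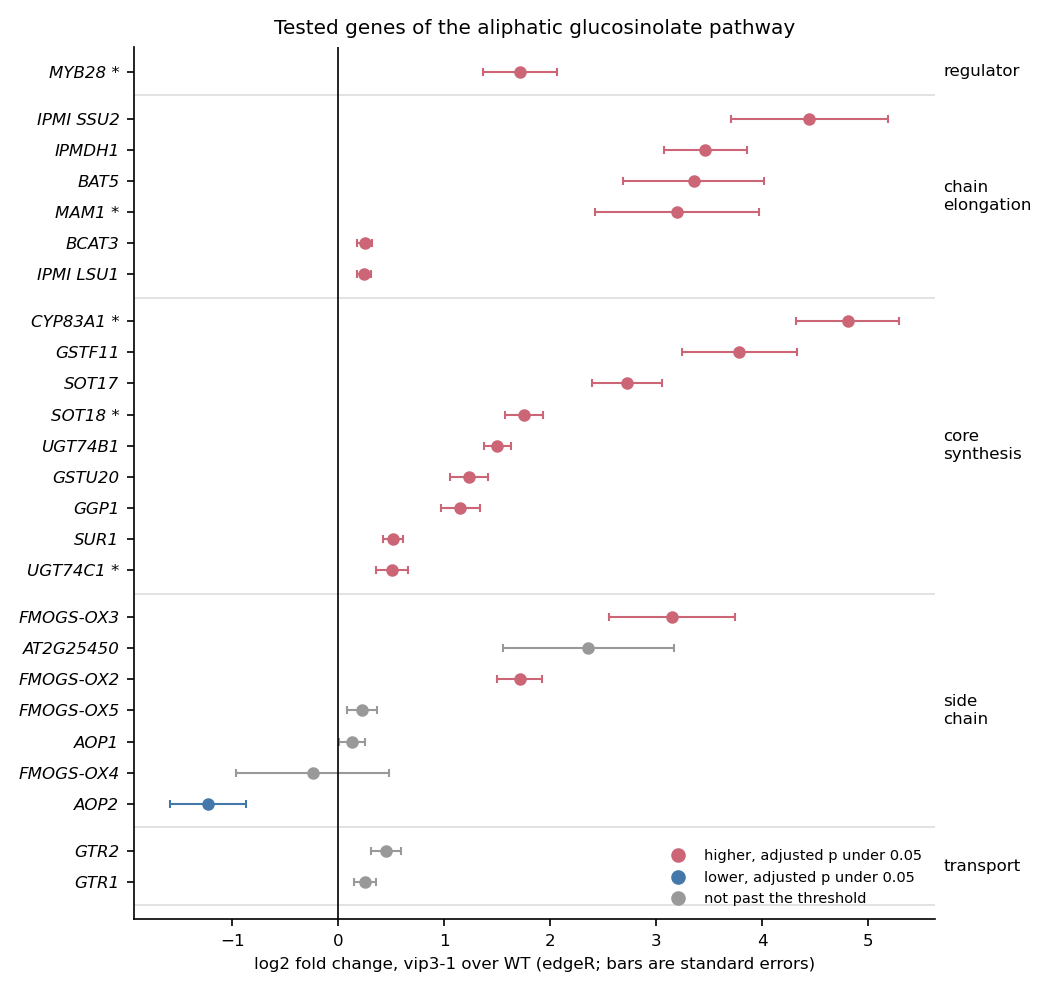
Log2 fold change of *vip3-1* over WT with its SE for the tested genes of the aliphatic pathway, grouped by step, with an asterisk after the 5 members and colours for the call at an adjusted p-value under 0.05. *CYP83A1* (4.80) and *IPMI SSU2* (4.44) lie farthest to the right, and *AOP2* (-1.23) is the only gene called lower.

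In chain elongation the largest rises came from genes that were almost silent in WT. *IPMI SSU2* (AT2G43100), a small subunit of the isomerase, had 3, 0 and 2 counts in WT and 49, 21 and 29 in *vip3-1*, a rise of 4.44 on the log2 scale (SE 0.74, adjusted p = 0.00826 in edgeR's test). *IPMDH1* (AT5G14200), the dehydrogenase of the pathway, rose from 0.132 ± 0.0405 to 1.46 ± 0.390 CPM (SD, n = 3), or by 3.46 on the log2 scale (SE 0.39, adjusted p = 0.00284). *BAT5* (AT4G12030), the plastid carrier, rose by 3.35 on the log2 scale (SE 0.67, adjusted p = 0.0134). Its change was 4.03 without WT replicate 3 and 2.67 without *vip3-1* replicate 1 (adjusted p = 0.00785 and 0.0418), and limma on log2(FPKM + 1) without a filter gave 0.92 (adjusted p = 0.0690). By contrast, *IPMI LSU1* and *BCAT3*, which also serve leucine synthesis or branched-chain amino acid metabolism, were abundant in WT (186 and 77.2 CPM) and rose by 0.24 and 0.25 (adjusted p = 0.0320 and 0.0396 in edgeR's test). No WT library of *IPMI SSU2* or *IPMDH1*, and 1 of *BAT5*, reached the filter level, so these 3 genes entered the test through *vip3-1*.

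Core synthesis showed the same mixture of nearly silent and well expressed genes. *GSTF11*, a glutathione transferase, had 1 or 2 counts in the WT libraries and 24, 12 and 27 in *vip3-1*, a rise of 3.78 (SE 0.54, adjusted p = 0.00528 in edgeR's test). It also entered the test through *vip3-1*. *SOT17*, the paralogue of *SOT18*, rose by 2.72 (adjusted p = 0.00343). *UGT74B1*, *GGP1* and *SUR1*, which also act in the indole branch, rose by 1.50, 1.15 and 0.51. *GSTU20*, listed here with the aliphatic genes only, rose by 1.23. Adjusted p-values of these 4 genes were between 0.00126 and 0.0104 in edgeR's test. Those 4 genes were already at between 36.1 and 93.7 CPM in WT.

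Side-chain genes differed among themselves. The S-oxygenase genes *FMOGS-OX3* and *FMOGS-OX2* rose by 3.15 and 1.71 on the log2 scale (adjusted p = 0.0116 and 0.00372 in edgeR's test), whereas *FMOGS-OX5* had 0.22 and did not pass. *FMOGS-OX4* had 3.50, 3.19 and 19.4 CPM in WT and 5.65, 6.03 and 10.3 CPM in *vip3-1*. WT replicate 3 was its highest library, and its log2 fold change was -0.24 (adjusted p = 0.812), or 0.21 with the replicate number as a block (adjusted p = 0.686). *FMOGS-OX1* had no count in WT and 10, 1 and 2 in *vip3-1*, and was not tested. *AOP2* (AT4G03060) had 4.42, 2.88 and 2.32 CPM in WT and 1.92, 1.00 and 1.17 CPM in *vip3-1*. It fell by 1.23 on the log2 scale (SE 0.36, adjusted p = 0.0414), and the call was lost in 8 of 15 alternatives, with adjusted p-values up to 0.134. The side-chain gene AT2G25450 had a log2 fold change of 2.36, and its adjusted p was 0.0671, or 0.0303 with the replicate number as a block. *AOP2* is known to be non-functional in Col-0, and the RefSeq annotation gives it no coding sequence.

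The members' partners and the sulphate supply were read from further lists, with the background of 30.7% called, 14.6% higher and 16.1% lower. Of 6 bHLH and sulphur regulators, *MYC4* and *SDI1* were higher (median log2 fold change 0.38). *MYC4*, a bHLH partner of the MYB activators, rose from 15.8 ± 0.921 to 22.2 ± 1.47 CPM (log2 fold change 0.49, SE 0.082, adjusted p = 0.00831 in edgeR's test). *MYC2* and *MYC3* had log2 fold changes of 0.28 and -0.055 (adjusted p = 0.263 and 0.739). *SDI1*, a sulphur-deficiency gene known to repress aliphatic glucosinolate synthesis through MYB28, rose from 2.79 ± 1.60 to 12.1 ± 3.19 CPM (SD, n = 3). Its log2 fold change of 2.11 (SE 0.50) had an adjusted p of 0.0233, which became 0.0700 and 0.0854 without *vip3-1* replicates 1 and 2.

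Of 9 sulphate activation genes, 7 were higher (median log2 fold change 0.83), where 14.6% of all tested genes were. *APK2*, which makes the sulphate donor used by the sulphotransferases, had 5.21, 5.09 and 8.02 CPM in WT and 38.5, 37.1 and 24.7 CPM in *vip3-1*. The genotypes were well separated (log2 fold change 2.45, SE 0.25, adjusted p = 0.00206 in edgeR's test). *APK1*, its partner, rose by 0.94 (SE 0.10, adjusted p = 0.00251). The sulphate reductases *APR1* and *APR2*, which feed cysteine synthesis, rose by 1.73 and 0.95 (adjusted p = 0.0223 and 0.0386). Both were lowest in WT replicate 3, and their changes were 1.41 and 0.70 without it (adjusted p = 0.0110 and 0.0143). *APR1* lost its call without WT replicate 1 or *vip3-1* replicates 1 or 2, and *APR2* without each of these or *vip3-1* replicate 3, with adjusted p-values up to 0.0782 and 0.122. Under the replicate block the third reductase gene, *APR3* (log2 fold change 0.83, adjusted p = 0.0832), reached an adjusted p of 0.00932, and the regulator AT1G04770 (0.78, adjusted p = 0.135) reached 0.0190.

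**Figure D3:**
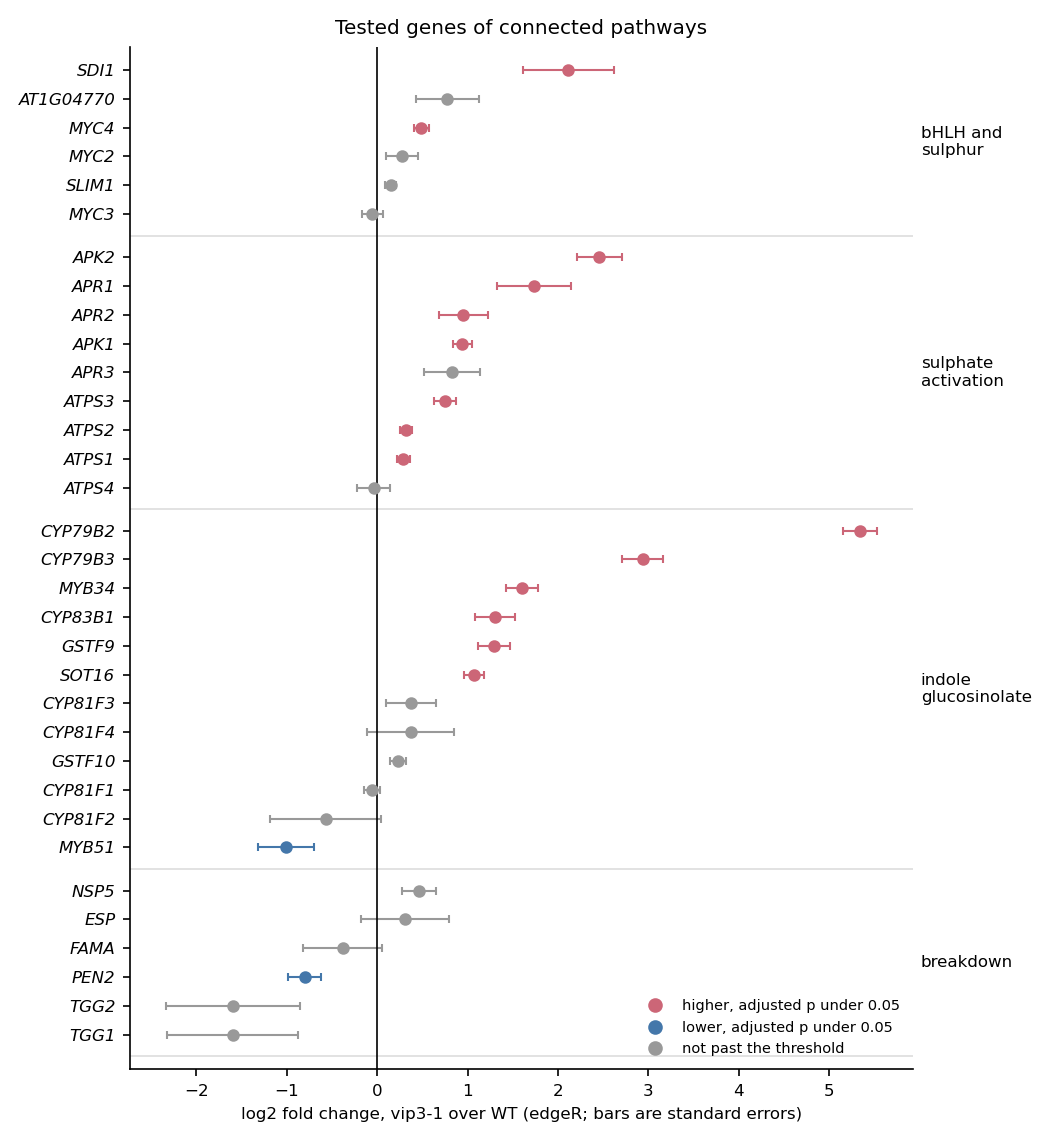
Log2 fold change of *vip3-1* over WT with its SE for the tested bHLH and sulphur regulators, sulphate activation, indole glucosinolate and breakdown genes, coloured by the call at an adjusted p-value under 0.05. *CYP79B2* (5.34) is highest, and *MYB51* (-1.01) and *PEN2* (-0.80) are the only genes called lower.

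The indole branch starts from tryptophan and shares enzymes with the aliphatic one. Of 15 listed genes, 12 were tested, 6 were higher and 1 was lower in *vip3-1* (median log2 fold change 0.72), where 14.6 and 16.1% of all tested genes were. *CYP79B2*, which converts tryptophan to its aldoxime, rose from 1.09 ± 0.231 to 44.7 ± 6.41 CPM (SD, n = 3 each), or by 5.34 on the log2 scale (SE 0.19, adjusted p = 0.000192 in edgeR's test). *CYP79B3* and *CYP83B1*, the paralogue of *CYP83A1*, rose by 2.94 and 1.3003 (adjusted p = 0.00109 and 0.00834). The indole regulators moved apart. *MYB34* rose by 1.60 (SE 0.18, adjusted p = 0.00274), whereas *MYB51* fell by 1.01 (SE 0.31, adjusted p = 0.0489). With the replicate number as a block the adjusted p of *MYB51* was 0.0886, and it was lost in 10 of 15 alternatives, up to 0.131.

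Of the breakdown genes, 6 were tested. *PEN2*, an atypical myrosinase that acts on indole glucosinolates, fell by 0.80 on the log2 scale (SE 0.18, adjusted p = 0.0185 in edgeR's test), with adjusted p-values of 0.0512, 0.0701 and 0.0698 without WT replicate 1, *vip3-1* replicate 1 and *vip3-1* replicate 2. The classical myrosinase gene *TGG1* had 173, 122 and 562 CPM in WT and 169, 72.3 and 41.0 CPM in *vip3-1*. It was thus high in WT replicate 3, overlapped between genotypes and did not pass (adjusted p = 0.135). *NSP5*, a nitrile-specifier gene, had a log2 fold change of 0.46 (adjusted p = 0.105), which passed under the replicate block (adjusted p = 0.0134).

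Marker lists were read beside the members, with 14.6% of all tested genes higher and 16.1% lower. Vascular genes, the tissue for which the pathway is known, summed to between 45.7 and 60.1 CPM in WT and between 95.2 and 128 CPM in *vip3-1*. Of these 11 genes 5 were higher, with a median log2 fold change of 1.07 and a highest value of 1.85 for *SWEET12*. Without WT replicate 3, 8 were higher, in a fit where calls over all genes also rose, from 6354 to 8055. Under the replicate block 6 vascular genes were higher, with *SUC2* and *SWEET11* gained (adjusted p = 0.0110 and 0.0307) and *VND7* lost (0.0718). The *SWEET12* value is that of the top gene of the list and is set beside the members as a description only. It is below the log2 fold changes of *MAM1* and *CYP83A1* and above those of *MYB28*, *SOT18* and *UGT74C1*. The labelled tissue was represented by 8 meristem and primordium genes, 6 of them higher (median 0.40, and 7 under the block with *ANT*, adjusted p = 0.0492), which summed to between 944 and 1182 CPM in WT and 1375 and 1452 CPM in *vip3-1*. Of 8 photosynthesis genes, 4 were lower (median -0.58), with sums from 5726 to 7842 CPM in WT and from 3000 to 4379 CPM in *vip3-1*. The 10 tested older-flower genes had a median log2 fold change of -3.01, or 0.52 without WT replicate 3, and the block called *ACOS5* and *AMS* lower (adjusted p = 0.0141 and 0.0322). No marker was at 0 in all libraries, and the part of these tissues in the members' changes was not tested.

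**Figure D4:**
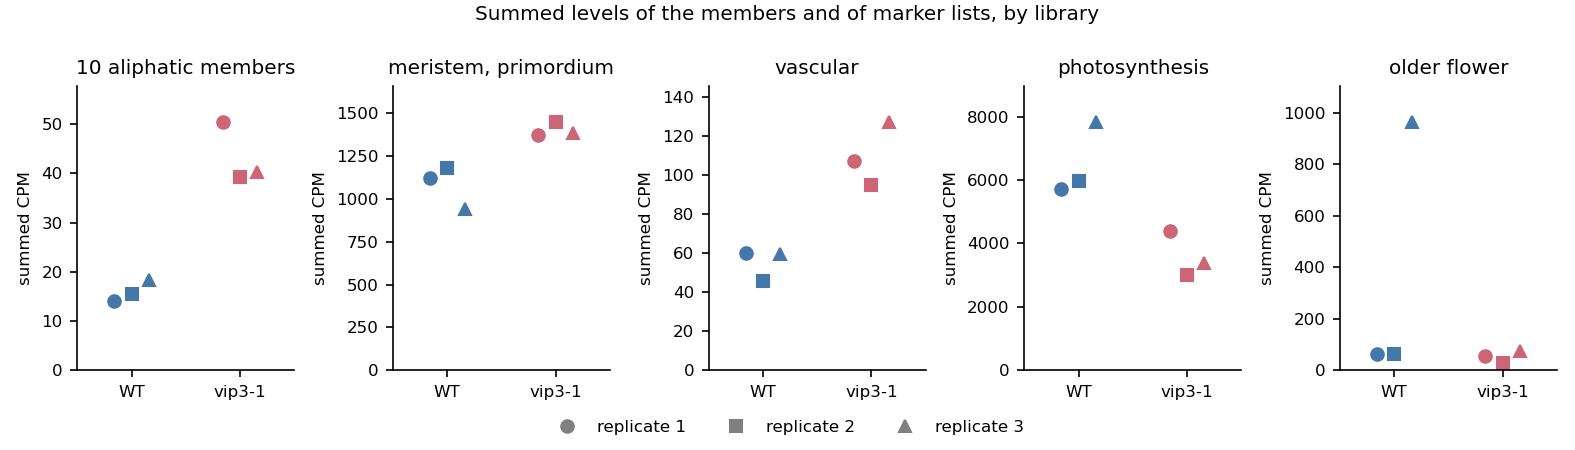
Summed CPM (linear axes from 0) of the 10 members and of the meristem, vascular, photosynthesis and older-flower marker lists in each library, with the replicate number as the symbol. The members (14.1 to 18.4 CPM in WT, 39.2 to 50.6 CPM in *vip3-1*) and the meristem, vascular and photosynthesis lists are all separated by genotype. The photosynthesis list is lower in *vip3-1* and the others are higher. As a sum, the older-flower list is high in WT replicate 3 (967 CPM) alone, although its ovule genes *STK* and *INO* are highest in *vip3-1* replicate 1.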

How the data were processed

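RNA-seq of 6 libraries, 3 WT and 3 *vip3-1*, was analysed from deposited tables. Per the labels and methods, the authors trimmed reads with Trimmomatic, mapped them to TAIR10 with TopHat 2.0.6 and Bowtie 2.0.5, and used SAMtools 1.2 and Cufflinks 2.1.1. The deposited estimated counts are fragments per gene, not scaled for library size. Of these values, 1.47%, in 1059 genes, were not whole, and counts were rounded before testing. The deposited FPKM are the authors' fragments scaled by transcript length and mapped fragments. A table of the authors' Cuffdiff comparison (mean FPKM, log2 fold changes, test scores, p- and q-values) was not used. Strand setting and the handling of overlapping genes are not given in the sources used here. Columns of other samples numbered 0. *ESM1*, a breakdown gene, was not analysed here.

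Genotypes were compared over all genes with edgeR 4.0.16 in R 4.3.3 (TMM, filterByExpr with a minimum of 10 counts, quasi-likelihood F-test, genotype as the only factor, Benjamini-Hochberg adjustment). Every adjusted p in the text comes from this test unless another tool is named. Each SE was computed from the same test, as the absolute log2 fold change over the square root of its F statistic. It is therefore not a separate estimate of error. CPM were scaled by TMM library size. The floor was 3 counts per library and covers counting error only. The test was tried on simulated counts first. Alternatives used DESeq2 1.42.0, limma 3.58.1 and each library left out. Comparing the CYP79F1 share by counts in place of FPKM was chosen after seeing the data. No 2 libraries of a genotype were copies (chi-square per degree of freedom between 21.8 and 131).

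Replicate numbers come from the titles. Deviations from the genotype mean correlated between same-numbered libraries at 0.217, 0.190 and 0.367, all above 0.1. The main test did not pair libraries, and the replicate number served only as a block in an alternative fit. No source states a shared growth or harvest. Of the differently numbered pairs, WT replicate 1 and *vip3-1* replicate 2 correlated at 0.289, above the 0.190 of the replicate 2 pair. The replicate block is given beside a result where it changed a call.

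The members and lists were chosen with earlier results of these data known. Named outside the members were, from each list, up to 4 of the largest rises and falls that were called without overlap between genotypes, and the 5 genes most like the members among those whose log2 CPM averaged 1 or more. Other genes of the lists named in the text, markers and overlapping genes included, were chosen after their values were seen. Coordinates and sequences are those of RefSeq for TAIR10.1, matched by locus and read with biopython 1.88. Symbols that RefSeq does not give for a locus are those of the lists.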

Additional observations from a re-analysis of the deposited data

How the results depend on the processing

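No called gene named by the rule changed direction in an alternative. Among genes that were not called, *FMOGS-OX4* went from -0.24 to 0.21 under the replicate block, and *CYP79F2*, at 0.12 in edgeR without a filter, was at -0.00022 in limma without a filter. Of the 10 members, 5 were called, and so many also with DESeq2, with voom and sample quality weights and with the replicate block, which changed no call among the members. The 5 called without the low-count filter or without WT replicate 3 include *BCAT4* in place of *UGT74C1*. The number fell to 3 with at least 10 counts in every library, where *MAM1* and *CYP83A1* were not tested, to 3 with limma on log2(FPKM + 1) and to 2 at an adjusted p-value under 0.01. It ranged from 2 to 5 when single libraries were left out, and was 2 without *vip3-1* replicate 1 (*CYP83A1* and *SOT18*). The count of other aliphatic genes called, 14, ranged from 10 to 17 over 15 alternatives.

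Over all genes, 6354 calls became 3901 and 4011 with limma on log2(FPKM + 1) and log2(FPKM + 0.1), 3297 without a filter on FPKM, 9601 with voom weights and 7388 with the replicate block. They ranged from 2673 (without *vip3-1* replicate 2) to 8055 (without WT replicate 3) when single libraries were left out. Library sizes without TMM moved the median log2 fold change from -0.018 to -0.11. Under the block *MYB51* lost its call, and no other gene named by the rule did. Log2(FPKM + 1) understates changes of low genes, such as *MAM1* at 0.61 (adjusted p = 0.0502 in limma). Depth limits *MYB29*, *MYB76*, *BCAT4* and the *CYP79F* genes, each with at most 14 counts a library.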
